A study of Homo sapiens with 9 samples.

Results

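The genes for the subunits of oxidative phosphorylation were followed complex by complex in HEK293 cells, an established human line from embryonic kidney. Members were the probe sets annotated with 1 gene symbol of the families NDUFA, NDUFB, NDUFC, NDUFS and NDUFV with a number, SDHA to SDHD, CYC1, CYCS, UQCR, COX4 to COX8 with a suffix, and ATP5. They were picked by symbol and not by value, but the rule was written with earlier results of these data known. They came to 65 genes on 66 probe sets, of 14232 gene symbols and 22011 probe sets in all, since COX7A2 had 2 probe sets. By complex there were 26 genes of complex I, 3 of complex II, 6 of complex III, 15 of complex IV and 12 of complex V. CYCS (cytochrome c), ATP5IF1 (an inhibitor of complex V) and UQCRBP1, a pseudogene, were kept apart. The markers UQCRQ, NDUFV1 and NDUFB2 were all measured, with mean log2 values above those of 86.7%, 95.4% and 65.6% of probe sets.

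The cells were transfected with stealth siRNAs against DBC1 (siDBC1), against ZNF326 (siZNF326) or with a control siRNA (siCTR), and total RNA was taken after 48 h. The gene CCAR2 encodes DBC1, and ZNF326 (ZIRD) is the zinc finger partner of DBC1 in the DBIRD complex, whose part in expression and splicing the series set out to study. Each group held 3 arrays from 3 independent experiments. All groups share the HEK293 background and the transfection, no untransfected cells were analysed here, and the labels do not say how many siRNA sequences each target received.

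The complexes sit in the inner mitochondrial membrane. Complex I takes electrons from NADH and complex II takes them from succinate, and both pass them through ubiquinone to complex III, which hands them over cytochrome c to complex IV and so to oxygen. Complexes I, III and IV pump protons, and complex V, the ATP synthase, lets them back to make ATP. Most subunits are nuclear genes, and a few of every complex except complex II are encoded by mitochondrial DNA. Several nuclear subunits of complex IV exist as isoforms that are used in particular tissues.

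Many nuclear genes of the pathway carry sites for the factors NRF1, ETS family proteins and YY1 near their starts, so promoters are shown for the 3 markers and for NDUFA6, whose values are described with them. The 250 bases before each gene's start come from RefSeq on build GRCh38.p14, read 5′ to 3′ along the gene. UQCRQ lies at chr5:132866392-132866641 on the plus strand, NDUFB2 at chr7:140696458-140696707 on the plus strand, NDUFV1 at chr11:67606686-67606935 on the plus strand, and NDUFA6 at chr22:42090773-42091022 on the minus strand. Capitals mark a match to a searched motif.
UQCRQ: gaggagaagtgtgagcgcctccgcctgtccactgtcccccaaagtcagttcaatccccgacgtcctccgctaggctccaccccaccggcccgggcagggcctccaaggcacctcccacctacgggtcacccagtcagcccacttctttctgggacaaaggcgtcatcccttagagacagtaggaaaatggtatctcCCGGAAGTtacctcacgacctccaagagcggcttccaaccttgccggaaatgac
NDUFB2: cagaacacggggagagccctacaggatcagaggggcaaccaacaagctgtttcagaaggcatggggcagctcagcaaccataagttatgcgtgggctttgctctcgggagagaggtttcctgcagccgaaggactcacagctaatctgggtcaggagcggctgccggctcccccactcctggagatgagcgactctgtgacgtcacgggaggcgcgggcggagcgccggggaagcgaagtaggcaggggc
NDUFV1: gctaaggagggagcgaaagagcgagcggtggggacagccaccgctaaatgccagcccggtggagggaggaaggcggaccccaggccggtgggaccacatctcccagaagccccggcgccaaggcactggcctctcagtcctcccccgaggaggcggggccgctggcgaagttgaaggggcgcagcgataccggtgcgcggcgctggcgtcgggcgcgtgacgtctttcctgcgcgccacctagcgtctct
NDUFA6: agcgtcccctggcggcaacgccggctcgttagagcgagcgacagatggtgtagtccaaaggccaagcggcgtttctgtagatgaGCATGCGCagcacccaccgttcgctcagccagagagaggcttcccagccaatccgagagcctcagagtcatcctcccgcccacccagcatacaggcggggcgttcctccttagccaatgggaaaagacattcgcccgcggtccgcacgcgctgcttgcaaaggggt
The capitals in UQCRQ are the ETS motif CCGGAAGT, which begins at position -54, and those in NDUFA6 are the NRF1 motif GCATGCGC, which begins at position -166. Neither these motifs nor the YY1 motif AAGATGGCG was in the printed bases of NDUFB2 and NDUFV1. Both strands were searched over 250 bases before and 50 after the start, with overlapping matches counted once per promoter, and 51 of the 62 subunit genes of complexes I to V had a promoter in the table. The NRF1 motif was in 9 of the 51 (17.6%), against 3.27% of all 27305 promoters and 4.22% of the 11386 that belong to genes measured with 1 symbol. The ETS motif was in 6 (11.8%), against 4.44% of all and 6.42% of the measured ones, and the YY1 motif in 7 (13.7%), against 1.85% and 2.97%. These are letters in a window and not sites shown to be bound.

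CCAR2, the target of siDBC1, read 6.50, 6.54 and 6.65 in siDBC1 arrays, against 7.67, 7.67 and 7.84 in siCTR arrays on the log2 scale, a difference of -1.16 (adjusted p = 0.0116, limma). The difference was below 0 in every setting run, but the adjusted p was 0.103 with a replicate block, 0.253 in a fit of only those groups, 0.122 without siDBC1 replicate 1, 0.0544 without siDBC1 replicate 2, 0.0629 without replicate 3 of the arrays labelled siZNF326 and 0.0843 without siCTR replicate 2. ZNF326 read 6.12, 5.56 and 5.81 in the arrays labelled siZNF326, against 5.25, 5.64 and 5.76 in siCTR arrays. Its transcript was thus not lower in the group named for it (difference 0.28, adjusted p = 0.851), so that group is called the arrays labelled siZNF326 here. In siDBC1 arrays ZNF326 read 6.24, 5.64 and 7.32. In the arrays labelled siZNF326 CCAR2 read 8.015, 7.95 and 7.99, above all siCTR arrays. Array medians ran from 5.58 to 5.89 in siDBC1, from 5.76 to 5.90 in the arrays labelled siZNF326 and from 5.67 to 5.78 in siCTR. Replicates 2 and 3 of siDBC1 stood apart, with a correlation of 0.960 between them across probe sets, whereas siDBC1 replicate 3 and replicate 1 of the arrays labelled siZNF326 correlated at 0.988. The 7 HEK293 markers lay at the 54.9th to 95.5th percentile of probe set means. The 5 epithelial markers lay at the 40.4th to 98.2th percentile, led by the keratins KRT8 and KRT18. No marker of either list was called, but several read higher beside the members, and their part in the members' values was not tested. In the arrays labelled siZNF326 against siCTR, the HEK293 markers had a median difference of 0.19. There 6 of 7 were above 0 (85.7%, against 56.6% of all probe sets). An unadjusted p below 0.05 was found for 3 (42.9%, against 8.65% of all probe sets). The same 3, NEFM, NEFL and INA, lay above siCTR without overlap (42.9%, against 12.9%). The highest was NEFM, a neurofilament gene, at 1.72, and the lowest was PAX2 at -0.01. The epithelial markers had a median of 0.02 there. In siDBC1 against siCTR, all 5 epithelial markers were above 0, against 53.7% of all probe sets, with a median of 0.24. Of them, 2 had an unadjusted p below 0.05 (40.0%, against 6.18% of all probe sets). The HEK293 markers had a median of 0.01 there. Fibroblast and haematopoietic markers lay at or below the 67.0th percentile. COL1A1 of the fibroblast list, at the 67.0th, and CD68 of the haematopoietic list, at the 60.4th, lay above the HEK293 marker PAX2. PTPRC, the lowest haematopoietic marker, read 1.71 to 1.78 on all arrays.

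None of the 65 genes passed an adjusted p of 0.05 in any of the 3 comparisons. In the arrays labelled siZNF326 against siCTR, most members read slightly higher (73.8%, against 56.6% of all probe sets). Their median difference of 0.17 was 0.08 with every array centred on its median. The difference was largest for COX7A2 of complex IV (2.39-fold) and the p smallest for UQCRQ of complex III (2.0-fold), while the complex I core subunit NDUFV1 read lower. In siDBC1 against siCTR, NDUFB2 of complex I had the smallest p of the members (adjusted p = 0.277, limma). There the members' median distance from siCTR spread from -0.06 to 0.27 over the siDBC1 arrays. All 3 siCTR arrays serve both of these comparisons, so their values are given side by side and are not independent. Of the 65 genes, 54 had a mean above the median of probe set means. The shares over all probe sets given below are not matched to that level.

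For siDBC1 against siCTR, limma called 8 of all probe sets (0.0363%) and 0 members. At an unadjusted p below 0.05 there were 7 members, 6 higher and 1 lower (10.8% of members), against 6.18% of all probe sets. All siDBC1 arrays lay above all siCTR arrays for 5 members (7.69%), against 5.18% of probe sets, and below them for 0 members, against 3.66%. The median difference of the members was 0.07, against 0.01 over all probe sets, and 45 of 65 were above 0 (69.2%, against 53.7% of all probe sets). It was 0.004 without siCTR replicate 1, 0.03 without siDBC1 replicate 3 and 0.17 without siDBC1 replicate 2.

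In the arrays labelled siZNF326 against siCTR, limma called 33 of all probe sets (0.15%) and 0 members. Here 16 members had an unadjusted p below 0.05, 13 higher and 3 lower (24.6%), against 8.65% of all probe sets. The arrays did not overlap for 17 members that read higher (26.2%), against 12.9% of probe sets, and for 4 that read lower (6.15%), against 5.27%. The median difference was 0.17, against 0.03 over all probe sets, and 48 of 65 were above 0 (73.8%, against 56.6% of all probe sets). It was 0.08 both after quantile normalization and with centred arrays.

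Between the arrays labelled siZNF326 and siDBC1, limma called 2 probe sets (0.00909%) and 0 members. There were 6 members with an unadjusted p below 0.05, 5 higher and 1 lower (9.23%), against 7.31% of all probe sets. Arrays did not overlap for 3 members that read higher (4.62%), against 5.21% of probe sets, and for 2 that read lower (3.08%), against 4.24%. The median difference was 0.10, against 0.02 over all probe sets, and 47 of 65 were above 0 (72.3%, against 55.4%). It was -0.001 without siDBC1 replicate 2 and -0.002 after quantile normalization, so its direction rests on that array and that scaling.

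**Figure D1:**
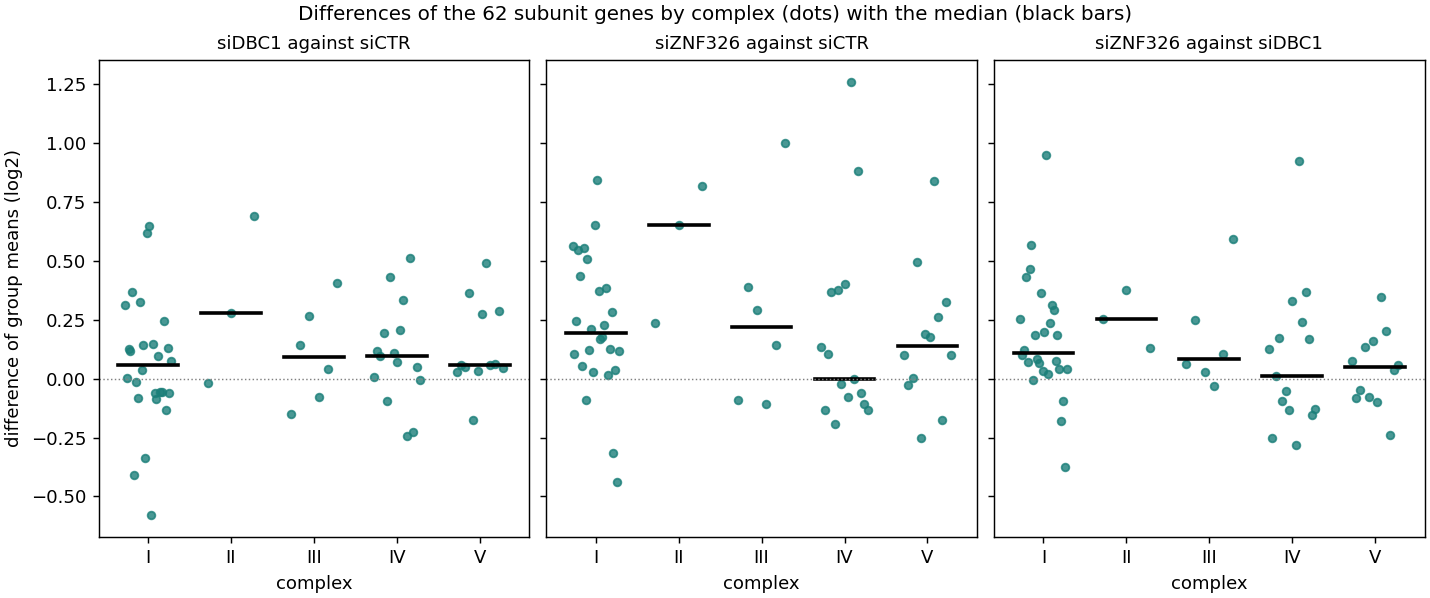
Difference of group means (log2) for each of the 62 subunit genes of complexes I to V in the 3 comparisons, with the black bar at the median of each complex. In the arrays labelled siZNF326 against siCTR the bars of complexes I, II, III and V lie above 0 and that of complex IV at -0.004, and complex II rests on 3 genes.

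By complex, the median differences in siDBC1 against siCTR were 0.06 for complex I, 0.28 for II, 0.09 for III, 0.09 for IV and 0.06 for V. In the arrays labelled siZNF326 against siCTR they were 0.19 for complex I, 0.65 for II, 0.22 for III, -0.004 for IV and 0.14 for V. Against siCTR, complexes I, II, III and V thus had a larger median in the arrays labelled siZNF326 than in siDBC1. Complex IV had a smaller one. In the arrays labelled siZNF326 against siCTR, the share of genes above 0 was lowest in complex IV (7 of 15). It was 23 of 26 in complex I and 3 of 3 in complex II, against 56.6% of all probe sets. Between the arrays labelled siZNF326 and siDBC1 the medians were 0.11, 0.25, 0.08, 0.01 and 0.05 for complexes I to V. Each of these turned below 0 with 1 array left out. Without siDBC1 replicate 2 complexes I, III and V were at -0.009, -0.03 and -0.05, and without siDBC1 replicate 1 complexes II and IV were at -0.002 and -0.03. No test between complexes was made, because genes of a complex are not replicates of a condition.

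The single arrays show how much of this is spread between replicates. Taken as the distance from the siCTR mean, the median of complex I genes was 0.07, -0.11 and 0.28 in siDBC1 arrays, 0.31, 0.23 and 0.10 in the arrays labelled siZNF326, and -0.12, -0.02 and 0.13 in siCTR arrays. The siDBC1 arrays covered a wider range than the siCTR arrays, and the lowest of the arrays labelled siZNF326 lay below the highest siCTR array. Complex III genes gave 0.03, -0.04 and 0.37 in siDBC1, 0.52, 0.16 and 0.03 in the arrays labelled siZNF326 and -0.12, -0.01 and 0.14 in siCTR. Complex V genes gave 0.10, -0.04 and 0.18 in siDBC1, 0.21, 0.19 and 0.00 in the arrays labelled siZNF326 and -0.12, 0.07 and 0.12 in siCTR. Replicate 2 of siDBC1 was the lowest array of its group in complexes I, II, III and V and replicate 3 the highest. The assembly factors of the complexes followed the same order, with -0.28 in replicate 2 and 0.28 in replicate 3, as did all probe sets with -0.06 and 0.09, and the part of these arrays in the members' values was not tested. Without replicate 3 the siDBC1 median of complex I was -0.05, that of complex II -0.17 and that of complex III -0.01. Without replicate 2 the median of complex I was 0.19 and that of complex V 0.15. Without siCTR replicate 1 the siDBC1 medians of complexes I and V were -0.03 and -0.002. In the arrays labelled siZNF326 against siCTR, leaving out replicate 1 of that group gave 0.07 for complex III and 0.01 for complex V, and leaving out siCTR replicate 1 gave 0.008 for complex V.

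**Figure D2:**
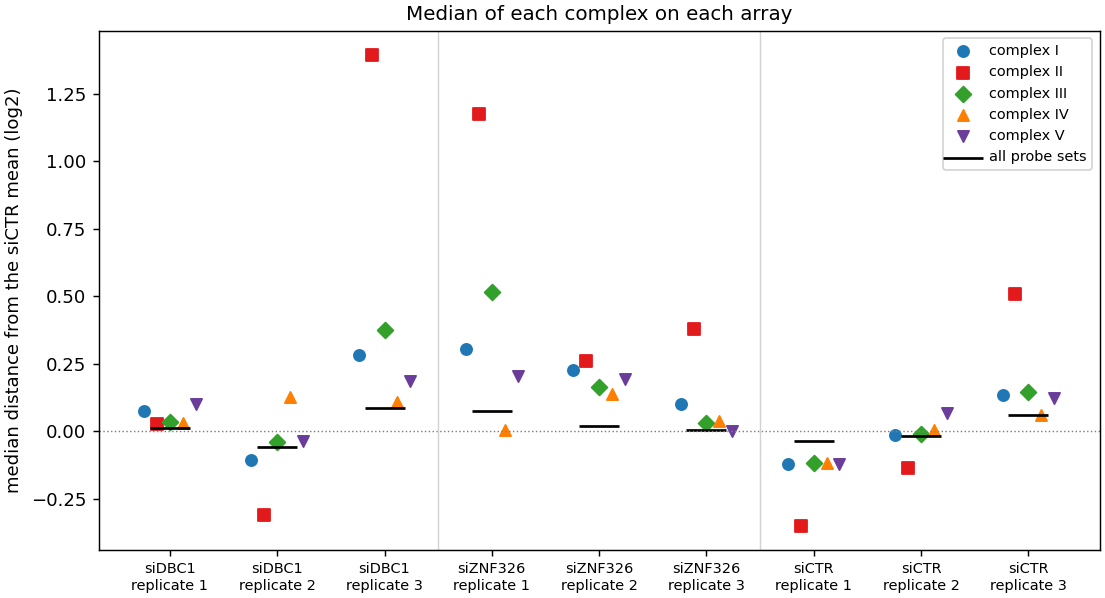
Median distance from the siCTR mean (log2) of the genes of each complex on each of the 9 arrays, with black bars for the median of all 22011 probe sets. The siDBC1 arrays spread from -0.31 to 1.40 in complex II, and complex IV stays between -0.12 and 0.14 on all arrays.

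In complex I, the 22 accessory subunits and the 4 measured core subunits are given separately, a split made after the values were seen. In the arrays labelled siZNF326 against siCTR, 21 of 22 accessory genes were above 0 with a median of 0.24, and the core genes NDUFS3, NDUFS7, NDUFS8 and NDUFV1 had a median of -0.15. In siDBC1 against siCTR the accessory median was 0.09, with 14 of 22 above 0, and the core median -0.06. In 8 of 22 accessory genes (36.4%) all arrays labelled siZNF326 were above all siCTR arrays, against 12.9% of all probe sets, and in 2 of 4 core genes all were below, against 5.27%. Since the split was made with these values in view, nothing is read from those shares. The core median leaves out probe sets with several symbols. Of those, the one naming NDUFS1, also a core gene, differed by 0.22 in the arrays labelled siZNF326 against siCTR. A second one naming NDUFS7 differed by -0.08 there, and by 0.49 in siDBC1 against siCTR.

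NDUFB2, an accessory subunit of the membrane arm, read 6.74, 6.61 and 6.78 in siDBC1 arrays, 6.74, 6.90 and 6.598 in the arrays labelled siZNF326, and 6.002, 6.004 and 6.28 in siCTR arrays. Every siDBC1 array and every array labelled siZNF326 lay above every siCTR array, and the siDBC1 arrays and those labelled siZNF326 overlapped. The difference was 0.62 ± 0.11 (SE) in siDBC1 (1.53-fold, adjusted p = 0.277) and 0.65 ± 0.11 in the arrays labelled siZNF326 (1.57-fold, adjusted p = 0.106), with n = 3 arrays a group in this limma fit across all probe sets. It had the smallest p of all members in siDBC1 against siCTR.

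NDUFV1 is the core subunit that binds FMN and oxidises NADH. It read 9.42, 9.35 and 9.43 in siDBC1 arrays, 9.06, 9.05 and 8.96 in the arrays labelled siZNF326, and 9.37, 9.41 and 9.60 in siCTR arrays. The arrays labelled siZNF326 were lower than all others, and siDBC1 and siCTR arrays overlapped. The difference was -0.44 ± 0.08 (SE) against siCTR (1.35-fold lower, adjusted p = 0.127) and -0.38 ± 0.08 against siDBC1 (adjusted p = 0.414).
NDUFS7, a core subunit with an iron-sulphur cluster close to the ubiquinone site, read 7.44, 7.51 and 7.38 in siDBC1 arrays, 7.22, 7.23 and 7.35 in the arrays labelled siZNF326 and 7.42, 7.60 and 7.72 in siCTR arrays. Its values in the arrays labelled siZNF326 were again below all others, with a difference of -0.32 ± 0.10 (SE) from siCTR (adjusted p = 0.371). The other core genes measured with 1 symbol, NDUFS3 and NDUFS8, differed from siCTR by 0.02 and 0.04 in these arrays.

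NDUFA6, an accessory subunit that anchors the mitochondrial acyl carrier protein in complex I, read 7.83, 7.34 and 8.08 in siDBC1 arrays, 8.49, 8.35 and 8.12 in the arrays labelled siZNF326, and 7.58, 7.76 and 7.96 in siCTR arrays. The arrays labelled siZNF326 were above all others, by 0.55 ± 0.20 (SE) against siCTR (adjusted p = 0.493) and 0.57 ± 0.20 against siDBC1 (adjusted p = 0.645). NDUFA2, which belongs to the NADH-oxidising module, read higher in both, by 0.37 ± 0.12 in siDBC1 (adjusted p = 0.644) and 0.44 ± 0.12 in the arrays labelled siZNF326 (adjusted p = 0.312), without overlap with siCTR in either.
NDUFB3, NDUFA1 and NDUFA8, also accessory subunits, differed from siCTR by 0.84, 0.56 and 0.51 in the arrays labelled siZNF326, with no overlap, and by 0.65, 0.31 and 0.32 in siDBC1, with overlap. NDUFB3 was measured low, at 3.14 in siCTR, with SDs of 0.85 in siDBC1, 0.23 in the arrays labelled siZNF326 and 0.45 in siCTR.

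The 3 members furthest below siCTR in siDBC1 were the accessory subunits NDUFB5, NDUFA5 and NDUFB10 of complex I. NDUFB5 read 7.81, 7.10 and 8.44 in siDBC1 arrays, 8.91, 8.43 and 8.86 in the arrays labelled siZNF326, and 8.32, 8.32 and 8.45 in siCTR arrays. The siDBC1 arrays spread widely, and the highest of them lay within the range of both other groups. Its difference was -0.58 ± 0.31 (SE) in siDBC1 against siCTR (adjusted p = 0.897), and -0.24 without siDBC1 replicate 2. Against siDBC1, the arrays labelled siZNF326 differed by 0.95 ± 0.31 (adjusted p = 0.645), the largest difference of a member in that comparison.
NDUFB10 differed from siCTR by -0.34 ± 0.14 (SE) and NDUFA5 by -0.41 ± 0.43 in siDBC1 (adjusted p = 0.786 and 0.979), and by 0.03 and 0.06 in the arrays labelled siZNF326. Both overlapped siCTR in siDBC1.

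**Figure D3:**
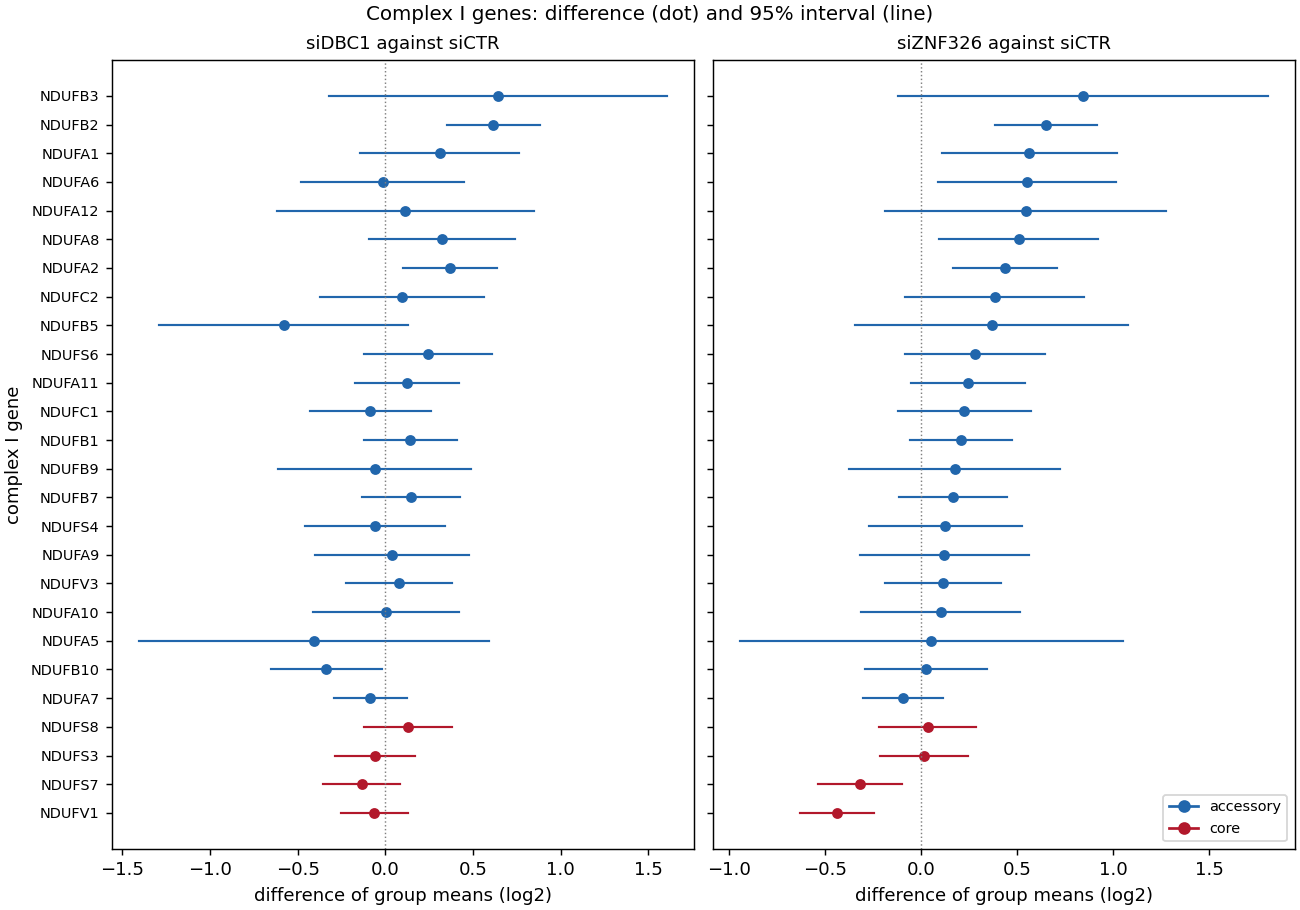
Differences from siCTR (log2) of the 26 complex I genes, as dots with 95% intervals of the limma fit, for siDBC1 on the left and the arrays labelled siZNF326 on the right. In the right panel 21 of 22 accessory genes (blue) lie above 0, and NDUFS7 and NDUFV1 of the core (red) lie below it.

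Complex II was measured through SDHA, its flavin-binding catalytic subunit, and through the membrane anchors SDHC and SDHD. SDHA read 10.12, 9.73 and 10.37 in siDBC1 arrays, 10.48, 10.30 and 10.19 in the arrays labelled siZNF326, and 10.12, 10.02 and 10.13 in siCTR arrays. All arrays labelled siZNF326 were above all siCTR arrays, by a mean of 0.24 ± 0.16 (SE, adjusted p = 0.710), and the siDBC1 arrays lay on both sides. The anchors had low or scattered values. With 3 genes, the complex's median is the value of the middle gene, which was SDHC in both comparisons with siCTR. SDHD read 1.95, 1.21 and 3.47 in siDBC1 arrays, 2.85, 1.78 and 2.38 in the arrays labelled siZNF326 and 1.14, 1.38 and 2.03 in siCTR arrays, which overlap throughout. SDHC differed from siCTR by 0.28 ± 0.50 (SE) in siDBC1 and 0.65 ± 0.50 in the arrays labelled siZNF326 (adjusted p = 0.993 and 0.733), also with overlap.

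UQCRQ of complex III had the smallest p of all members in the arrays labelled siZNF326 against siCTR. It is a small accessory subunit next to cytochrome b. It read 7.71, 7.49 and 8.01 in siDBC1 arrays, 8.23, 8.48 and 8.27 in the arrays labelled siZNF326, and 7.20, 7.28 and 7.50 in siCTR arrays. The arrays labelled siZNF326 were above all others, and the lowest siDBC1 array was just below the highest siCTR array. The difference was 1.0 ± 0.15 (SE) in the arrays labelled siZNF326 against siCTR (95% interval 0.65 to 1.35, adjusted p = 0.0737), 0.41 ± 0.15 in siDBC1 against siCTR (adjusted p = 0.738) and 0.59 ± 0.15 between the arrays labelled siZNF326 and siDBC1 (adjusted p = 0.529). Against siCTR in the arrays labelled siZNF326, the adjusted p was 0.0207 with every array centred on its median, 0.0264 after quantile normalization, 0.0382 over the probe sets with a mean above the median and 0.0473 without siDBC1 replicate 2, and above 0.05 in the other settings.

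The other small subunits of complex III measured with 1 symbol read the same way at smaller size. A probe set shared by UQCRB and UQCRBP1 differed by -0.15 in siDBC1 and 0.54 in the arrays labelled siZNF326. UQCR10 differed by 0.14 ± 0.15 (SE) in siDBC1 and 0.39 ± 0.15 in the arrays labelled siZNF326 (adjusted p = 0.979 and 0.527), and UQCR11 by 0.26 ± 0.14 and 0.29 ± 0.14 (adjusted p = 0.908 and 0.616). Of the larger subunits, CYC1 (cytochrome c1) differed by -0.15 and -0.09 in the 2 comparisons, UQCRC1 by -0.08 and -0.11, and UQCRC2 by 0.04 and 0.14, with every group of arrays overlapping siCTR. UQCRC1 and UQCRC2 are the core proteins that face the matrix.

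**Figure D4:**
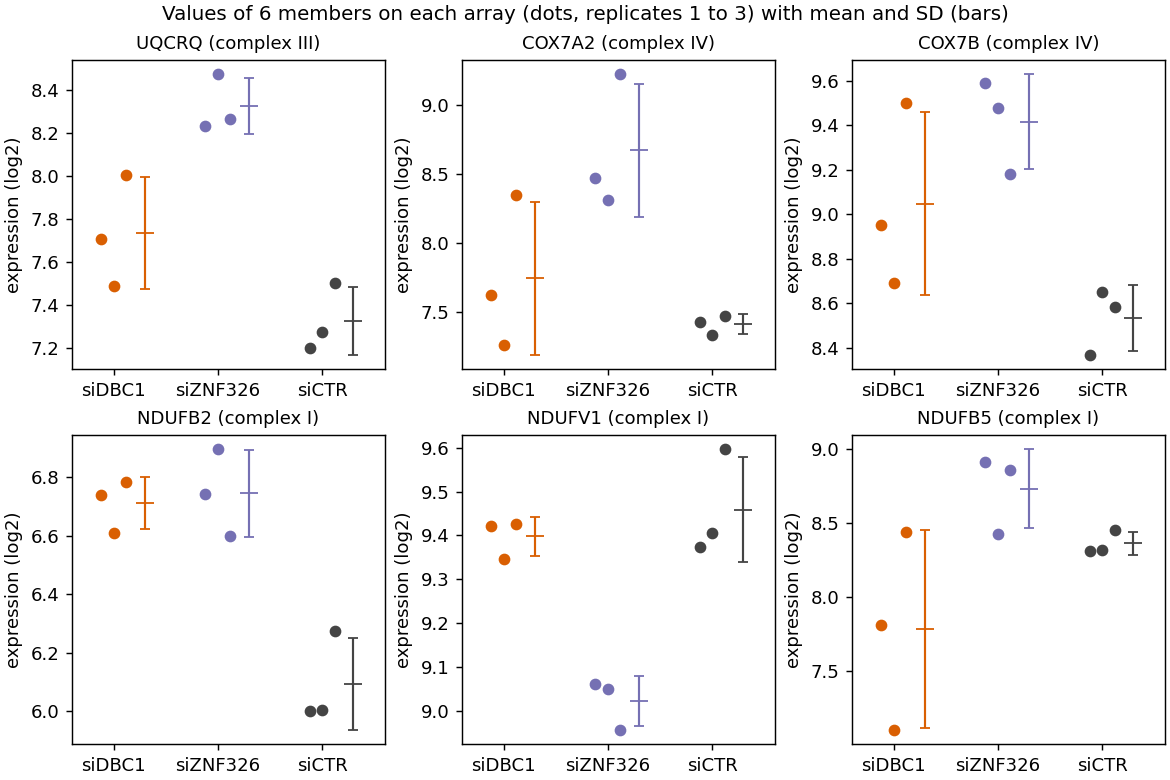
Log2 expression of 6 members on each array (dots, replicates 1 to 3 from left to right within a group), with the mean and SD of 3 arrays beside them, for siDBC1, siZNF326 as labelled and siCTR. NDUFB2 is above siCTR in siDBC1 and in the arrays labelled siZNF326, NDUFV1 is low in the arrays labelled siZNF326, and NDUFB5 spreads from 7.10 to 8.44 in siDBC1.

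Complex IV held genes with large positive differences beside others at or below 0. COX7A2, the widely used isoform of subunit 7A, read 7.63, 7.26 and 8.35 in siDBC1 arrays, 8.47, 8.31 and 9.22 in the arrays labelled siZNF326, and 7.43, 7.33 and 7.47 in siCTR arrays. All arrays labelled siZNF326 were above all siCTR arrays, and the siDBC1 arrays overlapped both. The difference of 1.26 ± 0.31 (SE, 2.39-fold, adjusted p = 0.271) was the largest of all members in the arrays labelled siZNF326 against siCTR, and it was 0.98 without replicate 3 of that group. A second COX7A2 probe set, at 0.91 in siCTR and so among the lowest of the array, differed by 0.16.
COX7B, a small subunit needed for assembly of complex IV, read 8.95, 8.69 and 9.499 in siDBC1 arrays, 9.59, 9.48 and 9.18 in the arrays labelled siZNF326, and 8.37, 8.65 and 8.59 in siCTR arrays. Every siDBC1 array and every array labelled siZNF326 was above every siCTR array, by a mean of 0.51 ± 0.21 (SE) in siDBC1 (adjusted p = 0.789) and 0.88 ± 0.21 in the arrays labelled siZNF326 (adjusted p = 0.252, and 0.0369 after quantile normalization). COX6B1, which faces the intermembrane space, differed by 0.43 ± 0.14 in siDBC1 (adjusted p = 0.644) and 0.37 ± 0.14 in the arrays labelled siZNF326 (adjusted p = 0.491).

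Isoform pairs of complex IV were read side by side. The 6 isoforms used in particular tissues, COX4I2, COX6A2, COX6B2, COX7A1, COX7B2 and COX8C, were all below 0 in the arrays labelled siZNF326 against siCTR, from -0.19 to -0.02 with a median of -0.11, and 3 of 6 were above 0 in siDBC1. The 9 widely expressed subunits of complex IV, with and without such an isoform, had a median of 0.37 in the arrays labelled siZNF326 and 0.09 in siDBC1. COX7A1, the muscle form, differed by -0.08 ± 0.12 (SE) where COX7A2 differed by 1.26, COX6B2, the testis form, by -0.02 ± 0.09 where COX6B1 differed by 0.37, and COX4I2, the lung form, by -0.13 ± 0.12 where COX4I1 differed by 0.13 ± 0.09. COX7B2 and COX7B differed by -0.06 and 0.88, and COX8C and COX8A by -0.13 and -0.11. The restricted isoforms lay between the 9.59th and 57.8th percentile of probe set means, and no detection values were used, so whether they were above background was not tested. The complex IV median of -0.004 in the arrays labelled siZNF326 became 0.37 when these 6 were left out, a choice made after the values were seen, and 0.12 without siCTR replicate 2.
COX7A2L, a relative of COX7A2 known from respiratory supercomplexes, differed by -0.24 ± 0.17 (SE) in siDBC1 (adjusted p = 0.950) and by -0.004 ± 0.17 in the arrays labelled siZNF326.

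In complex V, the 3 genes of the c ring differed among themselves although they encode the same mature protein with different import sequences. ATP5MC1 read 6.66, 6.55 and 6.85 in siDBC1 arrays, 6.71, 7.07 and 6.68 in the arrays labelled siZNF326, and 6.15, 6.29 and 6.54 in siCTR arrays. Every siDBC1 array and every array labelled siZNF326 was above every siCTR array, with differences of 0.36 ± 0.15 (SE) in siDBC1 and 0.50 ± 0.15 in the arrays labelled siZNF326 (adjusted p = 0.793 and 0.377). ATP5MC2 read 7.67, 7.40 and 7.72 in siDBC1 arrays, 7.61, 7.50 and 7.45 in the arrays labelled siZNF326 and 7.77, 7.87 and 7.67 in siCTR arrays. It read lower in both, with differences of -0.17 ± 0.11 in siDBC1 and -0.25 ± 0.11 in the arrays labelled siZNF326 (adjusted p = 0.928 and 0.574), and only the arrays labelled siZNF326 were free of overlap with siCTR. ATP5MC3 differed by 0.03 and 0.19, with overlap.
ATP5MJ, a small membrane subunit, read 7.29, 7.10 and 8.45 in siDBC1 arrays, 8.52, 7.93 and 7.43 in the arrays labelled siZNF326 and 7.02, 6.92 and 7.44 in siCTR arrays. Its differences of 0.49 ± 0.40 (SE) and 0.84 ± 0.40 (adjusted p = 0.958 and 0.615) were within the overlap of the arrays. The 3 genes of the F1 part, which holds the catalytic head, that were measured with 1 symbol were closer to siCTR. ATP5F1A, ATP5F1C and ATP5F1D, the alpha, gamma and delta subunits of F1, differed by 0.03, 0.06 and 0.05 in siDBC1 and by 0.10, -0.03 and 0.001 in the arrays labelled siZNF326. ATP5F1B, the beta subunit, lies on a probe set with several symbols that differed by 0.04 and 0.07. The 4 genes of the peripheral stalk had a median of 0.06 in siDBC1 and 0.18 in the arrays labelled siZNF326, with ATP5PD at 0.06 and -0.17.
ATP5IF1, the inhibitor that binds the head when the membrane potential is lost, read 6.54, 6.43 and 6.75 in siDBC1 arrays, 6.94, 6.65 and 6.86 in the arrays labelled siZNF326 and 6.36, 6.40 and 6.48 in siCTR arrays. All arrays labelled siZNF326 were above all siCTR arrays, by 0.40 ± 0.11 (SE, adjusted p = 0.328). CYCS differed by -0.03 ± 0.14 in siDBC1 and 0.10 ± 0.14 in the arrays labelled siZNF326.

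Other genes of the pathway gave 0 calls in any comparison. Of the 13 mitochondrially encoded subunits, ND5 and ND6 had a probe set with 1 symbol. ND5 differed by 0.11 ± 0.28 (SE) in siDBC1 and 0.18 ± 0.28 in the arrays labelled siZNF326, and ND6 by 0.25 ± 0.16 and 0.13 ± 0.16. Of 61 assembly factors 42 were measured, with medians of 0.02 in siDBC1 and 0.06 in the arrays labelled siZNF326, and 1 and 3 of them had an unadjusted p below 0.05 (2.38% and 7.14%, against 6.18% and 8.65% of all probe sets). TTC19, which keeps complex III free of fragments of its iron-sulphur subunit, read 7.73, 7.53 and 7.90 in siDBC1 arrays, 7.60, 7.39 and 7.30 in the arrays labelled siZNF326 and 8.09, 8.01 and 8.22 in siCTR arrays. It read below siCTR without overlap, with differences of -0.39 ± 0.12 in siDBC1 (SE, adjusted p = 0.659) and -0.67 ± 0.12 in the arrays labelled siZNF326 (adjusted p = 0.116). The adjusted p of the second difference was 0.00577 after quantile normalization and 0.0117 with centred arrays. COX15, a haem A synthesis enzyme for complex IV, differed by -0.21 ± 0.22 and -0.57 ± 0.22 (adjusted p = 0.978 and 0.516, the second 0.0395 after quantile normalization).

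Of 22 regulators of mitochondrial gene expression 17 were measured, with medians of 0.06 in siDBC1 and 0.13 in the arrays labelled siZNF326. LRPPRC, which stabilises mitochondrial messenger RNAs, read 8.23, 7.39 and 8.70 in siDBC1 arrays, 9.19, 8.81 and 8.84 in the arrays labelled siZNF326 and 8.99, 8.81 and 9.10 in siCTR arrays. All siDBC1 arrays were below all others, with a difference of -0.86 ± 0.30 (SE) from siCTR (adjusted p = 0.709), and of -0.51 without siDBC1 replicate 2. MTERF1, a mitochondrial transcription terminator, differed by 0.49 ± 0.24 and 0.60 ± 0.24 (adjusted p = 0.879 and 0.548), and the coactivator genes PPARGC1A and PPRC1 by -0.29 and 0.19 in siDBC1 and by 0.11 and 0.30 in the arrays labelled siZNF326. Of 14 tricarboxylic acid cycle enzymes 11 were measured, with medians of -0.08 in siDBC1 and -0.06 in the arrays labelled siZNF326. IDH3G, a subunit of isocitrate dehydrogenase, differed by 0.19 ± 0.07 and -0.06 ± 0.07 (adjusted p = 0.771 and 0.815), and SUCLA2, a subunit of succinate-CoA ligase, by 0.21 ± 0.36 and 0.59 ± 0.36 (adjusted p = 0.993 and 0.684). These are whole-culture values, in which fewer cells of a kind and less RNA per cell cannot be told apart.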

How the data were processed

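Per the labels, biotin-labelled targets for Affymetrix arrays were made by a whole-transcript protocol from DNase-treated total RNA after removal of ribosomal RNA. The deposited values are log2 expression values, 1 per probe set (a transcript cluster) and array, which the authors made with RMA on build hg18, per the submitters' processing notes. The RMA software and its version are not given in the sources used here. No scanner files, exon-level values or detection values were used, so splicing was not analysed here. The number of arrays, 3 a group, limits the precision.

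Groups and replicate numbers came from the sample titles. A linear model with 3 groups was fitted to all 22011 probe sets with limma 3.58.1 in R 4.3.3 (lmFit and eBayes), with no filter and no rescaling. The 3 comparisons between groups used two-sided moderated tests, and p-values were adjusted by Benjamini-Hochberg over all probe sets within a comparison. A call was an adjusted p below 0.05. Symbols came from the platform annotation, and a gene with several probe sets was represented by the one with the highest mean. Differences are log2 values, fold changes their powers of 2, and errors SE of the model. The fit was checked on simulated data with independent noise for each probe set and array. Those data held no shifts of whole arrays, so the check does not cover them.

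Same-numbered arrays of different groups had correlations of deviations from -0.296 to 0.395, with 3 of 9 over 0.1, so the numbers were not taken as pairs. The alternatives were a replicate block, only the groups compared, quantile normalization, centred arrays, the probe sets with a mean above the median, a trended robust fit, the mean over probe sets of a gene, other assignments of genes to complexes, and each array left out.

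The members and the lists were chosen with earlier results of these data known. Named were the markers and siRNA targets, for each comparison and complex the 2 members with the smallest p, the 5 largest differences in each direction, isoform pairs, and the 2 genes of each other list with the smallest p. The core, stalk and isoform classes and the genes described outside this rule were chosen after values were seen. Promoters came from RefSeq (GRCh38.p14).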

Additional observations from a re-analysis of the deposited data

How the results depend on the processing

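With 3 arrays a group and no detection values, small differences and low levels cannot be resolved. In all probe sets, the calls of the report (8 in siDBC1 against siCTR, 33 in the arrays labelled siZNF326 against siCTR, 2 between them) became 0, 1 and 0 with a replicate block, 0, 5 and 0 in fits of only the groups compared, 69, 196 and 28 after quantile normalization, and 46, 119 and 9 with centred arrays. The trended robust fit gave 4 in siDBC1, and the probe sets with a mean above the median 68 in the arrays labelled siZNF326. Leaving out 1 array gave 0 to 4, 1 to 64 (without siDBC1 replicate 2) and 0 to 1 calls. Members called in the arrays labelled siZNF326 against siCTR were 2 (UQCRQ and COX7B) after quantile normalization, 1 (UQCRQ) with centred arrays or over the brighter probe sets, and 0 to 1 with 1 array left out. With the replicate block the adjusted p of UQCRQ there was 0.183, and no member was called. Whether the numbers pair the arrays was not settled. When each array was set against the arrays of another group, the same-numbered one correlated best in 9 of 18 cases. CCAR2 in siDBC1 kept its direction and lost its call in the 6 settings the report gives. The complex IV median in the arrays labelled siZNF326 against siCTR was -0.0953 with centred arrays, 0.25 over the brighter probe sets, 0.3654 without the tissue-restricted isoforms, and -0.0354 to 0.117 with 1 array left out. Against siDBC1 it was -0.0654, 0.1506, 0.174 and -0.0323 to 0.1422. In siDBC1 against siCTR it was 0.0165 to 0.1218 with 1 array left out. For complex V the range with 1 array left out was 0.0077 to 0.1897 in the arrays labelled siZNF326 against siCTR and -0.0785 to 0.1232 against siDBC1. The cause of these shifts was not tested. The median of all members in the arrays labelled siZNF326 against siCTR was above 0 in every setting run, from 0.0763 with centred arrays to 0.2483 without replicate 3 of that group. That of siDBC1 against siCTR was 0.0035 to 0.1683 with 1 array left out, and that between the arrays labelled siZNF326 and siDBC1 -0.0012 to 0.1496. In this last comparison quantile normalization turned the medians of all members and of complexes I, IV and V below 0 (-0.0024, -0.0166, -0.0536 and -0.0351), and centred arrays turned complex V (-0.0294). In siDBC1 against siCTR the complex II median was -0.0178 over the brighter probe sets. These shifts were smaller than the spread between arrays.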

Other observations

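Subunits of the same complexes also lie on 26 probe sets annotated with several symbols, which name 23 subunits and could not be assigned to 1 gene. Of these, 9 are also members through another probe set, and 14 are not. Their median difference was 0.07 in siDBC1 against siCTR and 0.19 in the arrays labelled siZNF326 against siCTR. In both, 19 of 26 were above 0, against 53.7% and 56.6% of all probe sets. Limma called 0 of them, against 0.0363% and 0.15% of all probe sets. The lowest and highest differences were -0.31 and 0.49 in siDBC1, and -0.24 and 0.82 in the arrays labelled siZNF326.

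COXFA4, which older annotation places in complex I as NDUFA4 and which belongs to complex IV, read 3.48, 2.81 and 3.88 in siDBC1 arrays, 4.98, 3.03 and 4.15 in the arrays labelled siZNF326, and 2.56, 1.79 and 3.18 in siCTR arrays. Its differences were 0.88 ± 0.55 (SE, adjusted p = 0.930) and 1.54 ± 0.55 (adjusted p = 0.487) in the limma fit, larger than those of any member, at a low level and with overlap. Its relative COXFA4L2 differed by 0.14 and -0.02. Adding both to complex IV, or counting them in complex I, moved no complex median by more than the spread between arrays.

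UQCRBP1, a pseudogene related to complex III subunit UQCRB, read 1.86, 4.41 and 1.22 in siDBC1 arrays, 2.37, 1.84 and 2.30 in the arrays labelled siZNF326, and 2.53, 2.24 and 2.44 in siCTR arrays. The value of 4.41 came from siDBC1 replicate 2, the lowest siDBC1 array for complexes I, II, III and V.

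Across the 62 subunit genes, which share arrays and are not independent, the genomic span of a gene and its difference had a Spearman rho of -0.234 in siDBC1 against siCTR, 0.0747 in the arrays labelled siZNF326 against siCTR and 0.323 between the arrays labelled siZNF326 and siDBC1.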
